A study of Mus musculus with 12 samples.

Results

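Adenosine is made outside cells from ATP and NAD+ and is removed by deamination, phosphorylation and uptake, and 10 genes of these steps were chosen by name, for these roles, and described in CD8+ T cells from tumors. They were Entpd1, Nt5e and Cd38, whose products serve steps towards adenosine, and the transporter genes Slc29a1 and Slc29a2. The others were Ada, Dpp4, Adk, Pnp and Ampd3, which serve adenosine removal and the turnover of purines. Of these 10 genes, 9 had a row of their own among the 52636 gene identifiers of the count table, and all 9 passed the filter on low counts, under which 14173 genes were tested. The cells came from A2AR eGFP reporter mice on a C57BL/6 background, which carry the Tg(Adora2a-EGFP)EP141Gsat transgene, so that GFP reports a bacterial artificial chromosome with EGFP at the start codon of Adora2a and not the native locus. Mice were injected subcutaneously with 500000 cells of AT3ova, a mouse breast carcinoma line that expresses ovalbumin. They were left without treatment or received anti-PD-L1, an antibody against the ligand of the inhibitory receptor PD-1, on days 14 and 18, and on day 21 CD8+ T cells were sorted from the tumors as GFP+ or GFP-. The 4 conditions were non-treated GFP-, non-treated GFP+, anti-PD-L1 GFP- and anti-PD-L1 GFP+. Each was measured by 3′ mRNA sequencing in 3 libraries, each pooled from 3 mice. The p-values thus measure the spread between libraries of pooled mice, and the tests took all libraries as independent. Whether GFP+ and GFP- libraries came from the same pools is not given by the labels.

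Extracellular ATP is a danger signal that is broken down step by step at the cell surface. CD39, encoded by Entpd1, converts ATP and ADP to AMP, and CD73, encoded by Nt5e, converts AMP to adenosine, while CD38 consumes NAD+ and feeds a second route to AMP. Adenosine binds A2AR, which raises cAMP in T cells and restrains them. In CD8+ T cells CD39 and CD38 are known as markers of long antigen exposure, whereas CD73 is also carried by naive and memory cells.

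Total counts ranged from 11292699 to 19023900 per library. Libraries KT13 (non-treated GFP+) and KT21 (anti-PD-L1 GFP+) stood apart, with a median Spearman correlation to the other libraries of 0.941 and 0.935, against 0.967 to 0.977 for the rest, and the differences of the members are therefore given over all 12 libraries and over the other 10. Without these 2 libraries each GFP+ condition was left with 2 libraries, and the spread was estimated jointly with the GFP- conditions. The 6 CD8 T cell markers Cd8a, Cd8b1, Cd3d, Cd3e, Cd3g and Trac were abundant in every library, with a summed level of 3022 to 5091 CPM (counts scaled to library size after normalization by the trimmed mean of M-values, TMM), whereas Cd4 reached at most 0.919 CPM. The macrophage gene C1qa was at 26.6 to 96.2 CPM. Of 5 epithelial genes listed for the carcinoma line, Epcam was at 3.28 to 14.8 CPM, Krt8 and Krt18 were at most at 16.8 CPM, Krt19 was at 0 in 9 libraries and Cdh1 was at 126 to 296 CPM, and the source of these transcripts was not tested. Adora2a followed the sort. Its level was 19.7, 24.3 and 22.6 CPM (GFP-) and 67.3, 63.0 and 60.2 CPM (GFP+) without treatment, and 31.4, 34.6 and 26.0 CPM (GFP-) and 66.3, 111.3 and 89.1 CPM (GFP+) in treated mice. The GFP+ libraries lay above all GFP- libraries (log2 fold change 1.52, SE 0.138, adjusted p 0.000365 with edgeR's quasi-likelihood test, averaged over treatments), also without KT13 and KT21 (1.40, SE 0.118, adjusted p 5.21e-07).

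Entpd1 was the member called higher after anti-PD-L1 by edgeR over 12 libraries, averaged over GFP+ and GFP- cells. The gene (ENSMUSG00000048120) spans chr19:40612366-40741602 on the plus strand of mm10, with 5580 exon bases. Its level was 29.4, 25.1 and 27.6 CPM in the non-treated GFP- libraries KT14, KT16 and KT18, and 21.6, 19.3 and 18.3 CPM in the non-treated GFP+ libraries KT13, KT15 and KT17. After anti-PD-L1 it was 36.2, 38.8 and 34.7 CPM in the GFP- libraries KT20, KT22 and KT24, and 32.3, 41.3 and 39.1 CPM in the GFP+ libraries KT19, KT21 and KT23. Every treated library lay above every non-treated one, and before treatment every GFP+ library lay below every GFP- library. The mean was lowest without treatment, at 19.7 ± 1.72 CPM (SD, n = 3) for GFP+ and 27.3 ± 2.17 CPM for GFP- cells, and highest in treated mice, at 36.6 ± 2.13 CPM for GFP- and 37.6 ± 4.65 CPM for GFP+ cells, whose libraries overlapped.

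Averaged over GFP+ and GFP- cells, Entpd1 rose 1.60-fold after anti-PD-L1 (log2 fold change 0.67, SE 0.115, adjusted p 0.0181, edgeR). Of the 9 members it was the 1 called, where 0.395% of all tested genes were called in either direction and 0.0917% higher. Without KT13 and KT21 the log2 fold change was 0.67 (SE 0.120) with an adjusted p of 0.00267, and 1.36% of all genes were called. The call did not withstand the loss of every single library: the adjusted p was 0.0662 without KT18, 0.0600 without KT17, 0.0582 without KT20, 0.0827 without KT22, 0.0567 without KT24 and 0.0673 without KT23, with log2 fold changes from 0.64 to 0.72 over the 12 such fits. In bulk samples fewer cells of a type and less RNA per cell cannot be told apart.

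Within the GFP+ cells Entpd1 was 1.90-fold higher after anti-PD-L1 (log2 0.93, SE 0.163), which missed the threshold over 12 libraries (adjusted p 0.0946) and passed it without KT13 and KT21 (adjusted p 0.0153), with 0.0141% and 0.563% of all genes called. The latter comparison set 2 treated against 2 non-treated GFP+ libraries. Within the GFP- cells it was 1.34-fold higher (log2 0.42, SE 0.161, adjusted p 1), and 0% of genes were called there over 12 libraries, and without KT13 and KT21 its value was again 0.42 (SE 0.151, adjusted p 0.480), with 0.373% of genes called. Between GFP+ and GFP- cells the log2 difference was -0.47 (SE 0.163, adjusted p 0.675) before treatment and 0.039 (SE 0.161, adjusted p 0.995) after it. Without KT13 and KT21 these differences were -0.54 (SE 0.173, adjusted p 0.261) and -0.035 (SE 0.168, adjusted p 1). The difference between these 2 differences was 0.51 (SE 0.229) with an unadjusted p of 0.0427 and an adjusted p of 0.9999, and it was 0.51 (SE 0.240, unadjusted p 0.0465, adjusted p 0.9998) without KT13 and KT21, so that a GFP-dependent response of Entpd1 was not called.

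The upstream bases of the 2 annotated starts of Entpd1, and of Cd38 for the other member with a large difference after anti-PD-L1, are shown because A2AR acts through cAMP and its response element. Each window holds the 250 bases before a RefSeq start in GRCm38.p6, which shares the coordinates of mm10, read 5′ to 3′ on the plus strand. Capitals mark the half-site of the cAMP response element, TGACG, on either strand, so that a minus-strand match reads CGTCA.
Entpd1, chr19:40612116-40612365: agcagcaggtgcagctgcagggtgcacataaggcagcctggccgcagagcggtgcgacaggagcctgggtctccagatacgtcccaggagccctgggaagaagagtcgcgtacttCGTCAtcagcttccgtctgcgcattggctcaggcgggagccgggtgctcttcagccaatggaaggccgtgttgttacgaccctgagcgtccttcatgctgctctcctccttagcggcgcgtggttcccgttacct
Entpd1, chr19:40659520-40659769: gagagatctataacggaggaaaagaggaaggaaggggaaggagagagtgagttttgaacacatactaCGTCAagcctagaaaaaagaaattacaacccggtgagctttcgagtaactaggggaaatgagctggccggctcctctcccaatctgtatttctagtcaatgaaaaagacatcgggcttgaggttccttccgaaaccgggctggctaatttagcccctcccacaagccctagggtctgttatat
Cd38, chr5:43868559-43868808: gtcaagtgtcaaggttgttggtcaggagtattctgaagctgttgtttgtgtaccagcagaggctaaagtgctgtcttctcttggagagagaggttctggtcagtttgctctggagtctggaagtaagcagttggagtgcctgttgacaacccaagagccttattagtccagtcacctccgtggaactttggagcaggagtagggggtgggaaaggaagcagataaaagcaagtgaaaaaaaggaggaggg
Both Entpd1 windows held 1 half-site, at 135 and 183 bases before the start, and the Cd38 window held none. The Cd38 window lies within the GENCODE span of the gene, which starts at 43868553, and bases before that start were not searched. A half-site occurred in 17.8% of the 32851 promoter windows of the same length in RefSeq. The full element TGACGTCA, which contains the half-site on both strands, the AP-1 motif TGANTCA and the STAT motif TTCNNNGAA were searched on both strands as well and were found in none of the 3 windows, against 1.55%, 6.75% and 7.02% of all windows. The windows of the other members were searched in the same way. A half-site was also found for Adk, 12 bases before a start, and for Slc29a1, 61 bases before a start. The Ada window held a STAT motif 90 bases before the start. A half-site was thus not particular to Entpd1. A match is a stretch of letters, and no binding was measured here.

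**Figure D1:**
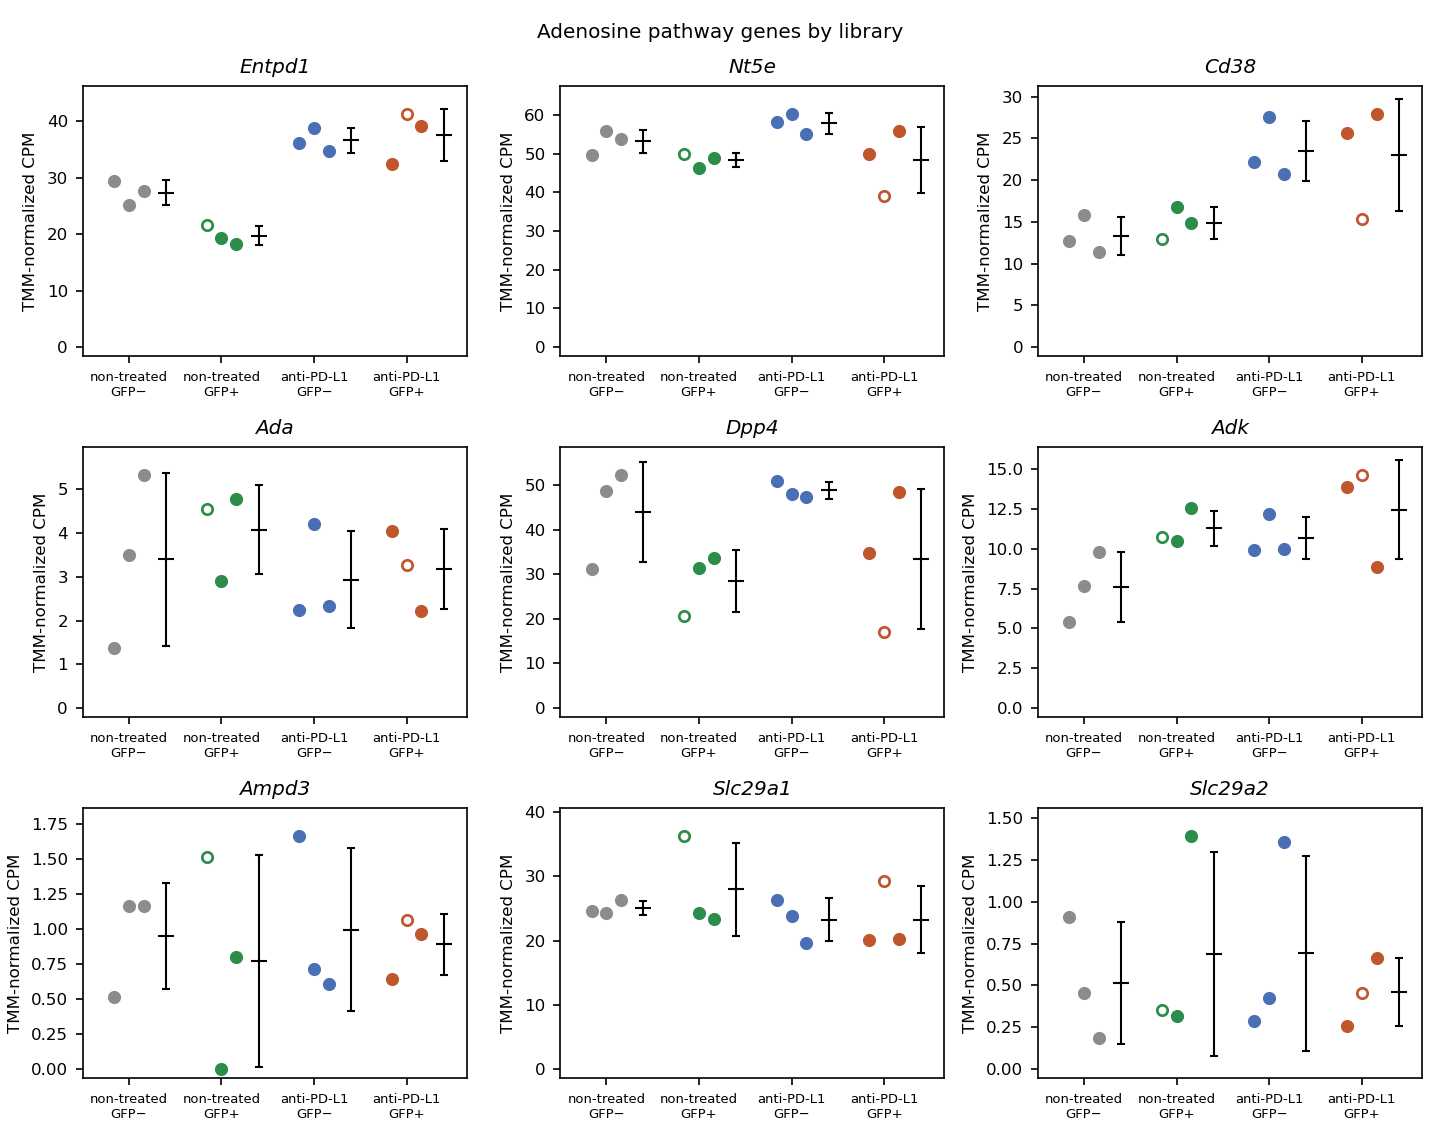
Level of the 9 members with a row in the count table in each library, as TMM-normalized CPM on axes that start near 0, by condition; black bars give the mean and SD of 3 libraries, and open circles are KT13 and KT21. Entpd1 is above 32 CPM in all treated and below 30 CPM in all non-treated libraries, whereas Ada, Ampd3 and Slc29a2 stay at a few CPM or less.

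Cd38, which encodes the NAD+ consuming ectoenzyme, was also higher after anti-PD-L1, and it was called once KT13 and KT21 were left out. The gene (ENSMUSG00000029084) spans chr5:43868553-43912375 on the plus strand, with 3890 exon bases. Its level was 12.7, 15.8 and 11.4 CPM in non-treated GFP- libraries and 13.0, 16.8 and 14.9 CPM in non-treated GFP+ libraries. After anti-PD-L1 it was 22.2, 27.6 and 20.8 CPM in GFP- libraries and 25.6, 15.3 and 27.9 CPM in GFP+ libraries. KT21, at 15.3 CPM, was the treated library that fell within the non-treated range, and without it the treated and non-treated libraries did not overlap.

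With treatment Cd38 differed by 0.72 on the log2 scale (SE 0.171, adjusted p 0.121) over 12 libraries and by 0.79 (SE 0.147, adjusted p 0.00385), or 1.73-fold, without KT13 and KT21. Leaving out KT21 alone gave 0.84 (adjusted p 0.0124), and leaving out any other single library kept the adjusted p between 0.117 and 0.348. Taken apart by sort, this value was 0.82 (SE 0.242, adjusted p 0.940) for GFP- and 0.62 (SE 0.242, adjusted p 0.618) for GFP+ cells over 12 libraries, and 0.82 (SE 0.187, adjusted p 0.0551) and 0.76 (SE 0.228, adjusted p 0.201) over 10. By the reporter Cd38 was not called: GFP+ against GFP- cells gave 0.065 (SE 0.170, adjusted p 0.945) averaged over treatments, and the interaction was -0.20 (SE 0.340, adjusted p 0.9999). Over 10 libraries these values were 0.22 (SE 0.146, adjusted p 0.670) and -0.064 (SE 0.293, adjusted p 0.9998).

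Nt5e, the gene of CD73, differed little between the conditions. It (ENSMUSG00000032420) spans chr9:88327197-88372092 on the plus strand, with 8602 exon bases. Its level was 49.8, 55.9 and 53.9 CPM (GFP-) and 50.02, 46.3 and 48.9 CPM (GFP+) without treatment, and 58.3, 60.3 and 55.0 CPM (GFP-) and 49.9, 39.1 and 55.9 CPM (GFP+) in treated mice. The highest library, KT22, was a treated GFP- one, and the lowest was KT21. With treatment it differed by 0.059 on the log2 scale (SE 0.109, adjusted p 0.990), and over 10 libraries by 0.14 (SE 0.0997, adjusted p 0.670). GFP+ against GFP- cells gave -0.20 (SE 0.109, adjusted p 0.668), and -0.15 (SE 0.100, adjusted p 0.679) without KT13 and KT21. The genes of the 2 successive steps from ATP to adenosine thus had log2 fold changes of 0.67 (Entpd1) and 0.059 (Nt5e) after anti-PD-L1, and the difference between these values was not tested.

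**Figure D2:**
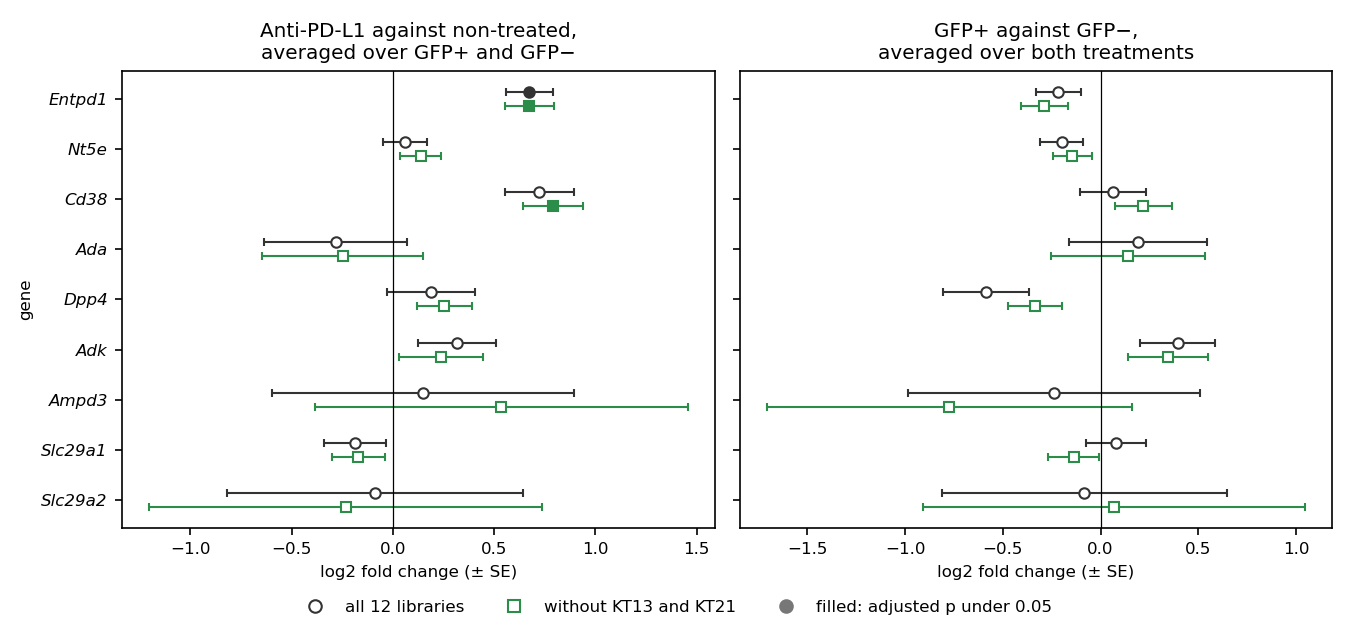
Log2 fold change with its SE for each member, left for anti-PD-L1 against non-treated cells averaged over GFP+ and GFP-, right for GFP+ against GFP- cells averaged over treatments; circles are fits on 12 libraries, squares fits without KT13 and KT21, and filled symbols have an adjusted p under 0.05. Entpd1 is filled in both fits on the left and Cd38 in the fit without KT13 and KT21, and no symbol on the right is filled.

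Dpp4 and Adk, which serve adenosine removal, differed in opposite directions by the reporter over 12 libraries, and neither was called under the count filter. Dpp4 encodes CD26, the surface protein that binds adenosine deaminase outside the cell, and spans chr2:62330073-62412231 on the minus strand. Its level was 31.3, 48.6 and 52.2 CPM (GFP-) and 20.7, 31.3 and 33.6 CPM (GFP+) without treatment, and 50.9, 48.0 and 47.4 CPM (GFP-) and 34.7, 17.1 and 48.4 CPM (GFP+) in treated mice. The lowest values, 17.1 and 20.7 CPM, were those of KT21 and KT13, and the groups overlapped in both treatments. By the reporter the log2 value of GFP+ over GFP- was -0.58 (SE 0.219, unadjusted p 0.0185, adjusted p 0.494) over 12 libraries and -0.34 (SE 0.137, adjusted p 0.360) without KT13 and KT21, and by treatment the values were 0.19 (SE 0.219, adjusted p 0.969) and 0.25 (SE 0.136, adjusted p 0.513).

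Adk encodes adenosine kinase, which returns adenosine to AMP inside the cell, and spans chr14:21052574-21448569 on the plus strand. Its level was 5.39, 7.66 and 9.80 CPM (GFP-) and 10.8, 10.5 and 12.6 CPM (GFP+) without treatment, and 9.91, 12.2 and 9.97 CPM (GFP-) and 13.8, 14.6 and 8.89 CPM (GFP+) in treated mice. The 3 non-treated GFP- libraries were below all other libraries except KT23. On the log2 scale GFP+ exceeded GFP- cells by 0.57 before treatment (SE 0.272, adjusted p 0.841) and by 0.22 after it (SE 0.270, adjusted p 0.993). Over 10 libraries these values were 0.60 (SE 0.291, adjusted p 0.548) and 0.090 (SE 0.293, adjusted p 1). By treatment Adk differed by 0.32 (SE 0.192, adjusted p 0.807) over 12 and by 0.24 (SE 0.207, adjusted p 0.749) over 10 libraries.

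Ada, which encodes the deaminase that turns adenosine into inosine, was low in every library. The gene spans chr2:163726584-163750239 on the minus strand and had 24 to 87 counts, or 1.36 to 5.33 CPM. The 4 conditions overlapped, with means of 3.40 ± 1.99 CPM (SD, n = 3) for GFP- and 4.08 ± 1.02 CPM for GFP+ cells without treatment, and of 2.93 ± 1.11 CPM for GFP- and 3.18 ± 0.921 CPM for GFP+ cells of treated mice. Its log2 difference was -0.28 (SE 0.353, adjusted p 0.975) with treatment and 0.19 (SE 0.353, adjusted p 0.917) for GFP+ against GFP- cells. Over 10 libraries these values were -0.25 (SE 0.396, adjusted p 0.888) and 0.14 (SE 0.395, adjusted p 0.956). A difference was not detectable at this spread between libraries.

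Ampd3, an AMP deaminase gene at chr7:110768206-110812405 on the plus strand, had between 0 and 23 counts per library. KT15 had no count, which allows up to 0.192 CPM at 3 counts, a limit that covers counting error only since the reads carried no molecular identifiers, and the highest level was 1.66 CPM. With treatment its log2 difference was 0.15 with an SE of 0.746 (adjusted p 0.999), and by the reporter it was -0.24 (SE 0.746, adjusted p 0.957). Without KT13 and KT21 these values were 0.54 (SE 0.919, adjusted p 0.897) and -0.77 (SE 0.934, adjusted p 0.853), so that a difference was not detectable at this depth.

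For Pnp, the phosphorylase that splits inosine to hypoxanthine, no row of the table carried the identifier that GENCODE vM21 gives it. Gm49342 (ENSMUSG00000021871) shares 718 of its 750 exon bases, or 95.7%, with Pnp exons and 32 with Pnp2, and reads of these genes cannot be told apart in it. The gene set behind the table is not given in the sources used here, and under another release this row may be the one named Pnp, in which case the values below would be those of Pnp. Gm49342 had 50.9, 48.6 and 36.3 CPM (GFP-) and 63.1, 35.1 and 40.0 CPM (GFP+) without treatment, and 36.0, 40.1 and 38.4 CPM (GFP-) and 46.2, 39.1 and 36.7 CPM (GFP+) in treated mice. The highest value belonged to KT13, and the conditions overlapped. Its log2 difference with treatment was -0.21 (SE 0.152, adjusted p 0.865) and was 0.058 (SE 0.152, adjusted p 0.944) for GFP+ against GFP- cells, against -0.051 (SE 0.121, adjusted p 0.931) and -0.075 (SE 0.122, adjusted p 0.903) without KT13 and KT21.

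The transporters ENT1 and ENT2 move nucleosides across the membrane in both directions. Slc29a1, the gene of ENT1 at chr17:45585200-45599606 on the minus strand, had 24.6, 24.3 and 26.3 CPM (GFP-) and 36.3, 24.3 and 23.4 CPM (GFP+) without treatment, and 26.3, 23.8 and 19.7 CPM (GFP-) and 20.2, 29.3 and 20.3 CPM (GFP+) in treated mice. The 2 highest libraries were KT13 and KT21, and the other 10 lay between 19.7 and 26.3 CPM. On the log2 scale Slc29a1 differed by -0.19 (SE 0.154, adjusted p 0.907) with treatment over 12 libraries and by -0.17 (SE 0.129, adjusted p 0.691) over 10, and for GFP+ against GFP- cells it was 0.078 (SE 0.154, adjusted p 0.921) with and -0.14 (SE 0.130, adjusted p 0.790) without KT13 and KT21. Slc29a2, the gene of ENT2 at chr19:5023860-5031972 on the plus strand, had 3 to 21 counts, or 0.184 to 1.39 CPM, and its SE of 0.729 on a log2 difference of -0.088 (adjusted p 0.99996) with treatment covered changes in either direction, as did the SE of 0.969 on -0.23 (adjusted p 0.962) without KT13 and KT21.

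Between GFP+ and GFP- cells no member was called by edgeR or DESeq2 in either library set under the count filter, whereas 1 (Dpp4) was called by edgeR with no filter, on average over treatments, where 0.772% of genes were called. Over 12 libraries and under the filter 0.00706% of genes were called by edgeR in non-treated cells, 0.0282% in anti-PD-L1 cells and 0.31% on average over treatments. Over 10 libraries these shares were 0.339%, 0.17% and 1.08%. With DESeq2 the shares in the same order were 0.374%, 0.375% and 1.11% over 12 libraries, and 1.1%, 0.502% and 1.74% over 10. At an unadjusted p under 0.05 by edgeR the count over 12 libraries was 1 member in non-treated cells (Entpd1), 0 in anti-PD-L1 cells and 1 on average (Dpp4), where 6.05%, 4.08% and 8.18% of all genes passed. In non-treated cells 1 of the 9 members was without overlap and lower in GFP+ (Entpd1, where 6.63% of genes were) and 1 was without overlap and higher (Adk, where 6.19% were). The median log2 fold change of the 9 members was -0.084 on average over treatments, against 0.0038 over all tested genes, with 4 members above and 5 below 0. With treatment the median was 0.15, against -0.0055 over all genes, with 6 above and 3 below 0. Over 10 libraries these medians were -0.14 by the reporter, against -0.0047 over all genes, and 0.24 by treatment, against -0.00092. In the treatment comparison over 12 libraries 1 member was higher without overlap on average, where 0.628% of genes were. At an unadjusted p under 0.05 the treated and non-treated cells differed in 2 members on average, in 2 within GFP+ cells and in 2 within GFP- cells (Entpd1 and Cd38 each time), where 7.67%, 6.74% and 3.44% of all genes passed. The interaction was called for 0 members by edgeR and by DESeq2, where 0% of genes were called, and 1 member (Entpd1) had an unadjusted p under 0.05, as had 2.08% of genes. Since the comparisons share libraries, these counts are not independent of each other.

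The rise of Entpd1 went together with differences in cell markers. The summed level of the 6 CD8 T cell markers was 3657 to 3892 CPM (GFP-) and 3022 to 3726 CPM (GFP+) without treatment, and 4199 to 4400 CPM (GFP-) and 3732 to 5091 CPM (GFP+) in treated mice, and all 6 had a higher mean after anti-PD-L1. Per 1000 CPM of these markers Entpd1 was 6.78 to 7.55 CPM, 5.81 to 6.11, 7.88 to 8.89 and 8.10 to 9.39 CPM in the same order, so that treated and non-treated libraries still did not overlap. With counts scaled to these markers, a setting added after the data were seen under which the median log2 fold change of all genes was -0.30, Entpd1 differed by 0.38 (SE 0.110, adjusted p 0.0795) over 12 libraries and 0.39 (SE 0.122, adjusted p 0.0327) without KT13 and KT21, where the median of all genes was -0.28 and 16.3% of genes were called, most of them lower. The part of the marker differences in the Entpd1 result was not tested.

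CD39 is also made by macrophages and regulatory T cells, and the part of such cells in the Entpd1 result was not tested. The 9 macrophage and monocyte markers summed to 149 to 215 CPM (GFP-) and 198 to 275 CPM (GFP+) without treatment, and 75.0 to 130 CPM (GFP-) and 85.8 to 163 CPM (GFP+) in treated mice, and 8 of the 9 had a lower mean after anti-PD-L1. Each of the 9 was detected, and Itgam was at 0 in 1 library. Foxp3, the defining factor of regulatory T cells, ran from 6.44 to 24.9 CPM over the 12 libraries, and both it and Cd4 had a lower mean after anti-PD-L1; Cd4 was at 0 in 7 libraries. By the reporter, all 9 macrophage markers had a higher mean in GFP+ than in GFP- cells over 12 libraries and 8 did without KT13 and KT21. Over 12 libraries 2 of 3 NK markers and all 3 endothelial markers also had a higher mean in GFP+ cells, and 1 NK marker a lower one. After anti-PD-L1 all 5 fibroblast markers had a lower mean, as had 2 of 3 NK and 2 of 3 endothelial markers. Of these, endothelial Cdh5 was at 0 in 11 libraries and fibroblast Pdgfra in 10. The part of these cells was not tested either.

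**Figure D3:**
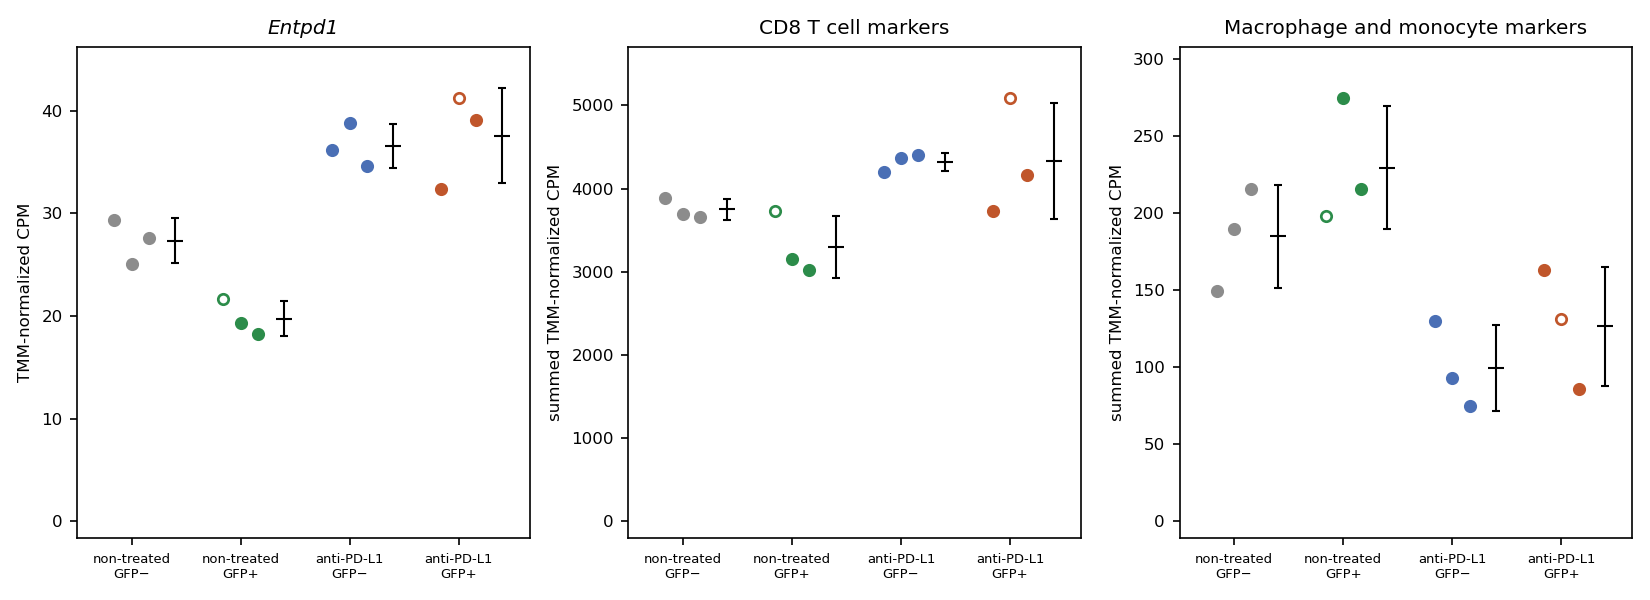
Entpd1 (left), the summed level of 6 CD8 T cell markers (middle) and that of 9 macrophage and monocyte markers (right) in each library, in TMM-normalized CPM; black bars give the mean and SD of 3 libraries and open circles are KT13 and KT21. Entpd1 and the CD8 markers have higher means after anti-PD-L1, and the macrophage markers lower ones.

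The genes whose levels followed Entpd1, Nt5e and Cd38 most closely were read as a description. Likeness was Pearson's r of log2(CPM + 0.5) over libraries that share treatment and sort. Over 12 libraries Entpd1 was most like Cd8a (r = 0.94), the lysosomal protease gene Ctsd (0.91) and Ifng (0.91), and over 10 libraries most like Nkg7 (0.96), Ifng (0.95) and Nsmce2 (0.95). Cd38 was most like the adhesion gene Alcam (0.90), Svip (0.90) and Nrp1 (0.90) over 12 libraries, and Alcam (0.94) was again among the 3 highest over 10, beside Lrrc8c (0.95) and Nans (0.95). Nt5e was most like Abr (0.95), Heatr5a (0.93) and Rpusd4 (0.93) over 12, and like Kdm4a (0.97), Endod1 (0.95) and Magt1 (0.94) over 10 libraries. Among the pairs of Entpd1, Nt5e or Cd38 with another member, Nt5e and Dpp4 had the highest r, 0.87 over 12 and 0.89 over 10 libraries, whereas Entpd1 with Nt5e gave 0.19 over 12 and 0.75 over 10.

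A wider list of 48 genes of purine breakdown, salvage, transport and nucleotide sensing was read from the same fits, and 33 of them passed the filter. None was called over 12 libraries in any comparison. At an unadjusted p under 0.05 by edgeR, 5 passed for GFP+ against GFP- cells on average, where 8.18% of all genes did. For anti-PD-L1 against non-treated cells on average 1 passed, where 7.67% of all genes did. The shares of all genes called were 0.31% by the reporter and 0.395% by treatment. Without KT13 and KT21 1 gene was called, P2ry14, which encodes a receptor for UDP-sugars. Its level was 13.2, 13.2 and 15.5 CPM (GFP-) and 8.01, 6.77 and 2.72 CPM (GFP+) without treatment, and 8.97, 12.4 and 15.7 CPM (GFP-) and 5.86, 10.5 and 5.85 CPM (GFP+) in treated mice. KT13 and KT21 had the highest level of their groups, and without them every GFP+ library lay below every GFP- library.

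P2ry14 fell by 1.31 on the log2 scale in GFP+ cells on average (SE 0.239, adjusted p 0.00403) without KT13 and KT21, where 1.08% of all genes were called, and by 1.55 in non-treated cells (SE 0.341, adjusted p 0.0473), where 0.339% were. Over 12 libraries the values were -1.0 (SE 0.262, adjusted p 0.197) and -1.26 (SE 0.373, adjusted p 0.562). Next by p-value over 12 libraries were Xdh, the gene of xanthine dehydrogenase, at 0.60 (SE 0.178, adjusted p 0.317) and Nt5c2, a cytosolic nucleotidase gene, at 0.62 (SE 0.211, adjusted p 0.429) for GFP+ against GFP- cells. Leaving out KT13 and KT21, these differences were 0.33 (SE 0.112, adjusted p 0.227) for Xdh and 0.35 (SE 0.216, unadjusted p 0.117, adjusted p 0.627) for Nt5c2. By treatment the smallest p-values belonged to the ATP-gated channel gene P2rx4, at -0.92 (SE 0.376, adjusted p 0.562), Art2b, a gene of an NAD+ dependent ADP-ribosyltransferase of T cells, at 0.63 (SE 0.397, adjusted p 0.821), and Xdh at 0.27 (SE 0.178, adjusted p 0.839). Over 10 libraries P2rx4 was at -1.21 (SE 0.381, adjusted p 0.141), Art2b at 0.42 (SE 0.442, adjusted p 0.803) and Xdh at 0.066 (SE 0.113, adjusted p 0.898).

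By role, the genes listed under production act on nucleotides or NAD+, and some of them, such as Art2b, do not yield adenosine or AMP. The 11 of them that were tested, without the members, had a median log2 fold change after anti-PD-L1 of 0.064 over 12 libraries. The median was -0.027 for the 13 of degradation and salvage, 0.062 for the 5 of transport and -0.30 for the 4 nucleotide receptors. Over all genes it was -0.0055. For GFP+ against GFP- cells the medians were -0.0039, -0.0088, -0.13 and -0.54 in the same order, against 0.0038. The related ectonucleotidase genes Entpd2, Entpd3 and Entpd8 did not pass the filter on low counts.

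**Figure D4:**
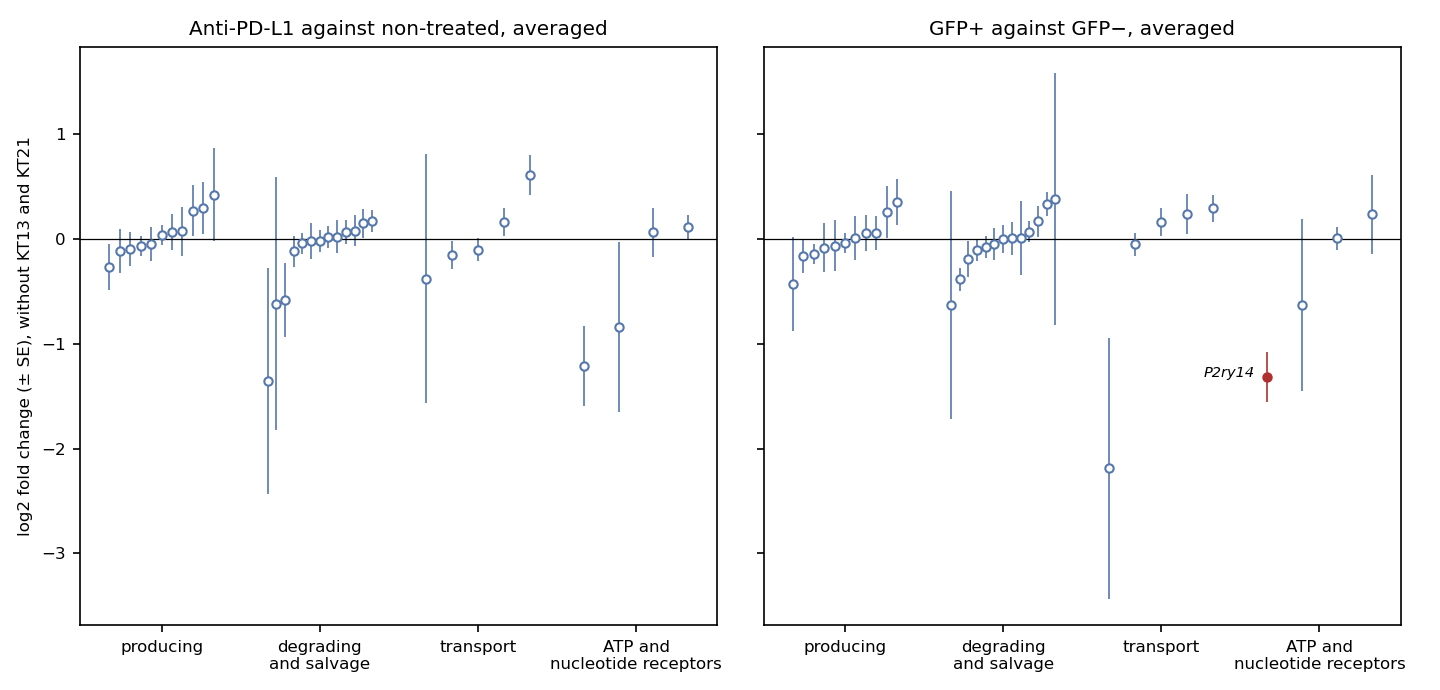
Log2 fold change with its SE of the 33 tested genes of the wider purine list by role, left for anti-PD-L1 against non-treated cells and right for GFP+ against GFP- cells, both averaged and without KT13 and KT21. P2ry14, at -1.31 on the right, is the filled point with an adjusted p under 0.05, and all other points are open.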

How the data were processed

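The authors deposited raw counts per gene for 12 libraries, made with HISAT2 against mm10 and then featureCounts, so that the values carry the effects of trimming, alignment and counting but no normalization. The strand setting, the low-count filter and the Ensembl release were not given in the sources used here. Groups were taken from the sample labels, which name no batch and do not tie GFP+ to GFP- libraries. Symbols came from GENCODE vM21 and matched 52403 identifiers. No pair of libraries within a group was a copy (chi-square per degree of freedom at least 11.9).

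Counts were normalized by TMM and tested with edgeR 4.0.16 (R 4.3.3), by the quasi-likelihood F test in 1 fit over 4 groups after filterByExpr, and p-values were adjusted over all tested genes by the Benjamini-Hochberg method. SEs come from the same fit. A call means an adjusted p under 0.05. The same fit without KT13 and KT21 tested 14747 genes. On simulated counts 76% of 2-fold and 100% of 4-fold changes after anti-PD-L1 were recovered among 13672 genes, with 8 false calls. The changed genes were drawn above a minimum mean level, which Ada, Ampd3 and Slc29a2 did not reach. The simulated spread depended on the level of a gene alone, and no library stood apart as KT13 and KT21 did. These shares therefore need not hold for the measured libraries or for genes of low counts.

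The members, the wider list, the markers and the libraries left out were chosen with earlier results of these data known, and the motifs after the data were seen. Named genes were the members, Adora2a, the called genes or else the 3 with the smallest p of the wider list, and the 3 genes most like Entpd1, Nt5e and Cd38. Since 3′ tags are not scaled by length, levels were not compared between genes. Exons of Dpp4 (3.67%), Slc29a1 (6.86%) and Ampd3 (at most 3.48% for 1 gene) overlap genes on the other strand, whose reads may not be separable. Alternatives were upper-quartile normalization, DESeq2 1.42.0, at least 10 counts in every library, no filter, only the groups compared and each library left out. Sequences were from RefSeq.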

Additional observations from a re-analysis of the deposited data

How the results depend on the processing

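In the comparison of anti-PD-L1 with non-treated cells on average, 1 member was called over 12 libraries, where 0.395% of all genes were. Entpd1 and Cd38, 2 members, were called with DESeq2 (1.3% of all genes), with no count filter (0.844%), without KT13 and KT21 (1.36%) and with DESeq2 on the same 10 libraries (2.04%). With counts scaled to the CD8 T cell markers 0 members were called (2.03% of all genes), and 3 were with that scaling without KT13 and KT21, the third being Slc29a1 at -0.45, where the median of all genes was -0.28 and 16.3% of genes were called, 2360 of 2404 lower. Over the 12 fits without a single library the count ran from 0 to 2. In GFP+ cells Entpd1 was the 1 member called after anti-PD-L1 with DESeq2 (0.697% of all genes), with no count filter (0.466%), without KT13 and KT21 (0.563%) and with DESeq2 on those libraries (1.04%), against 0 in edgeR over 12 libraries (0.0141%). In GFP- cells 1 member, Cd38, was called with DESeq2 without KT13 and KT21 (0.617% of all genes). For the reporter difference on average 1 member, Dpp4, was called with no count filter, at -0.59 (0.772% of all genes). The other counts of called members kept their value under the alternatives that were run, and the causes were not tested. With a minimum of 10 counts in every library Ampd3 and Slc29a2 were not fitted, and no fit of only the groups compared exists for the averages and the interaction. DESeq2 on these 10 libraries and the marker scaling were added after the data were seen.

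Values of members that were not called, and are near 0 or low in counts, turned sign under several settings. Without KT13 and KT21, the sign turned for treatment in GFP+ cells in Adk (-0.017) and Nt5e (0.15), for the reporter difference in treated cells in Cd38 (0.19) and Entpd1 (-0.035), for the reporter difference on average in Slc29a1 (-0.14) and Slc29a2 (0.069), for the reporter difference in non-treated cells in Slc29a1 (-0.072), for the interaction in Nt5e (0.028). With DESeq2 without KT13 and KT21, the sign turned for treatment in GFP+ cells in Adk (-0.028) and Nt5e (0.14), for the reporter difference in treated cells in Cd38 (0.18) and Entpd1 (-0.040), for the reporter difference on average in Slc29a1 (-0.14) and Slc29a2 (0.066), for the reporter difference in non-treated cells in Slc29a1 (-0.069), for the interaction in Nt5e (0.020). The marker scaling shifted the median of all genes. This median was -0.30 for treatment on average, -0.38 for GFP+ alone, -0.21 for GFP- alone and 0.11 for the average reporter difference. Without KT13 and KT21 it was -0.28, -0.35, -0.21 and 0.20. For the reporter difference in treated cells over 12 libraries it was 0.023. The part of this shift in the turned signs was not tested. Scaled to the CD8 T cell markers, the sign turned for treatment on average in Ampd3 (-0.13), Dpp4 (-0.098) and Nt5e (-0.22), for treatment in GFP- cells in Ampd3 (-0.13), Dpp4 (-0.065) and Nt5e (-0.085), for treatment in GFP+ cells in Adk (-0.25), Ampd3 (-0.12) and Dpp4 (-0.13), for the reporter difference in treated cells in Cd38 (0.022), for the reporter difference on average in Slc29a2 (0.053), for the reporter difference in non-treated cells in Nt5e (0.055), for the interaction in Dpp4 (-0.066). Scaled to the same markers without KT13 and KT21, the sign turned for treatment on average in Adk (-0.039), Dpp4 (-0.035) and Nt5e (-0.14), for treatment in GFP- cells in Ampd3 (-0.13), Dpp4 (-0.064) and Nt5e (-0.085), for treatment in GFP+ cells in Adk (-0.35) and Dpp4 (-0.0057), for the reporter difference in treated cells in Cd38 (0.32), for the reporter difference on average in Nt5e (0.059) and Slc29a2 (0.28), for the reporter difference in non-treated cells in Nt5e (0.12). The reporter difference of Slc29a1 in treated cells, near 0 over 12 libraries, was 0.030 with upper-quartile normalization, 0.014 with DESeq2, 0.016 with at least 10 counts in every library and 0.0025 in a fit of only the groups compared, and Nt5e with treatment in GFP+ cells was 0.0041 with no count filter. With each library left out in turn the following members had values on both sides of 0. For treatment on average these ranges were Ampd3 -0.15 to 0.61 and Slc29a2 -0.54 to 0.43. For treatment in GFP- cells these ranges were Ada -0.59 to 0.27, Ampd3 -0.52 to 0.33, Dpp4 -0.047 to 0.29, Slc29a1 -0.20 to 0.0055 and Slc29a2 -0.51 to 1.08. For treatment in GFP+ cells these ranges were Ampd3 -0.37 to 1.15, Dpp4 -0.13 to 0.54, Nt5e -0.11 to 0.13 and Slc29a2 -0.93 to 0.44. For the reporter difference in treated cells these ranges were Ada -0.098 to 0.49, Ampd3 -0.40 to 0.45, Cd38 -0.18 to 0.19, Entpd1 -0.035 to 0.14, Slc29a1 -0.20 to 0.12 and Slc29a2 -0.93 to 0.36. For the reporter difference on average these ranges were Ampd3 -0.70 to 0.073, Cd38 -0.0033 to 0.17, Slc29a1 -0.038 to 0.14 and Slc29a2 -0.60 to 0.39. For the reporter difference in non-treated cells these ranges were Ada -0.12 to 0.74, Ampd3 -1.24 to 0.28, Slc29a1 -0.073 to 0.27 and Slc29a2 -0.61 to 1.08. For the interaction these ranges were Ada -0.62 to 0.24, Ampd3 -0.44 to 1.08, Cd38 -0.35 to 0.023, Dpp4 -0.27 to 0.39, Nt5e -0.23 to 0.0053, Slc29a1 -0.36 to 0.070 and Slc29a2 -1.66 to 0.028.

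No paired analysis was possible because the labels give each library its own code and do not say which GFP+ and GFP- libraries came from the same mice. Batch and group cannot be separated further, since the labels give no batch. With 3 pools per condition, and with as few as 24, 0 and 3 counts in a library for Ada, Ampd3 and Slc29a2, small changes of these genes were not detectable. Transcript levels were measured, and neither enzyme activity nor adenosine was.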
